A study of Mus musculus with 36 samples.

Results

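Wide DNase-hypersensitive sites (DHSs) of mouse liver are described here, defined as the consensus DHSs on autosomes with a width of at least 1000 bp. They were chosen by width and position alone. That width comes from peaks called in these same mice and merged, so it is not independent of the signal. Its part in the signal levels and strain differences given below was not tested. Of 98170 DHSs in the deposited table, 2091 autosomal ones reached 1000 bp, and 2088 remained after 3 in the regions left out on chromosomes 1 and 17. The wide DHSs were 2.13% of all DHSs and held 6.65% of the base pairs in DHSs. The comparison set was the 94195 autosomal DHSs below 1000 bp, called narrow here.

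DNase-seq and RNA-seq were performed on livers of 18 male mice, with 4 vehicle-treated and 5 phenobarbital (PB)-treated animals in each of the strains C57BL/6 and B6C3F1. B6C3F1 is the hybrid of a C57BL/6 mother and a C3H/He father. C57BL/6 mice were 9 to 11 weeks old when obtained and B6C3F1 mice 4 to 5 weeks old. Treated mice drank water with 0.05% PB for 91 days, and control mice received vehicle for the same time. The strains came from different suppliers and belonged to separate studies, so strain cannot be told apart from supplier, age or study. The final digit of an animal's number in the labels serves as its mouse number within the group. DNase-seq values are normalized counts per DHS, and RNA values are CPM, read counts scaled to a common library size.

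DNase I cuts DNA that is free of nucleosomes, so reads pile up at active promoters, enhancers and insulators. A wide accessible stretch often covers the nucleosome-depleted start of a broadly used gene or a cluster of adjoining factor-binding sites at a gene that is highly active in the tissue. PB activates the nuclear receptor CAR in hepatocytes, which drives genes of drug metabolism such as Cyp2b10. In whole liver, fewer cells with an open site and less accessibility per cell cannot be told apart.

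The stretches below belong to wide DHSs named in the PB and strain results. Of these, the Sult1c2 DHS itself did not pass the main test for PB. For the Gm30551 and Klrb1a DHSs, the 300 bp with the most matches to 10 short motifs were taken, and for the promoters the 250 bp upstream of the transcription start site (TSS), read 5′ to 3′ on the gene's strand. Capitals mark motif matches. The genome is mm10, with the plus strand for all but Sult1c2.
Sult1c2 promoter (RNA higher with PB in both strains), chr17:53845959-53846208, minus strand: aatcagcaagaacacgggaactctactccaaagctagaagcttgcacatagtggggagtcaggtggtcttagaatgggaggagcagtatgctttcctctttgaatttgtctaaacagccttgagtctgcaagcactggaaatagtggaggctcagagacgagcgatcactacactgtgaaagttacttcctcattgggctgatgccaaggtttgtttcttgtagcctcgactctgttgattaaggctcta
Gm30551 DHS (higher in B6C3F1), chr13:103591605-103591904: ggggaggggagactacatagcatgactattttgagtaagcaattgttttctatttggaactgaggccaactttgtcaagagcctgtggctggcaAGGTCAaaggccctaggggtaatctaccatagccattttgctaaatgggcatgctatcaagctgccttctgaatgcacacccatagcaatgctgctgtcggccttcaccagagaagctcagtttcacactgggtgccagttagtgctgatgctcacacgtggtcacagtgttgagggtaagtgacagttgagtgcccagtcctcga
Klrb1a upstream DHS (lower in B6C3F1), chr6:128631349-128631648: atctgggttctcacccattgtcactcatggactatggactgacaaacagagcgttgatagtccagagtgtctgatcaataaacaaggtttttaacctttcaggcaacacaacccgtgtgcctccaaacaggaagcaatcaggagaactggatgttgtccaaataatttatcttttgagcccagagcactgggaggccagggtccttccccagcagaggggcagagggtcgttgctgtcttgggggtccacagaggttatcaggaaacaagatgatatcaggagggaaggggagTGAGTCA
Gpat3 promoter (DHS and RNA higher in B6C3F1), chr5:100845979-100846228: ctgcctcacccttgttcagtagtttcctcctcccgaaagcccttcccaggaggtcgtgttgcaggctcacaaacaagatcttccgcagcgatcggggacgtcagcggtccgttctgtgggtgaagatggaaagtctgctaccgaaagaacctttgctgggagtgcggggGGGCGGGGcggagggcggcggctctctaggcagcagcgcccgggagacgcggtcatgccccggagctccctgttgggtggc

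The Gm30551 stretch held the nuclear receptor half-site AGGTCA and the Klrb1a stretch an AP-1 sequence, TGAGTCA. The Gpat3 promoter was rich in G and C (64%) with 19 CG dinucleotides in 250 bp, whereas the Sult1c2 promoter had 4 and held no match. The Gm30551 and Klrb1a windows were picked for their matches, so the matches describe the printed bases only.

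Wide DHSs were mostly promoters. A promoter was counted where the DHS held a TSS or overlapped the 1000 bp upstream of one, and 1102 wide DHSs (52.8%) met this, against 13.2% of narrow ones. A further 548 wide DHSs were intergenic, 301 lay in introns and 137 overlapped an exon away from a promoter. A TSS lay inside 1061 of them. A DHS was CpG-rich with GC above 50%, an observed-to-expected CG ratio above 0.6 and a width of at least 200 bp. This held for 898 wide DHSs (43.0%) against 10.2% of narrow ones, of which 17462 were of 106 to 199 bp and could not qualify. The median width was 1133 bp and the widest site measured 2958 bp, and 140 members reached 1500 bp. On either side of the width limit, the 103 narrow DHSs of 990 to 999 bp had a median mean count of 831 and were promoters in 52.4% of cases, and the 116 of 1000 to 1009 bp had 819 and 50.0%.

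The wide sites were also the strong sites. Their median mean count over the 18 mice was 1038, against 111 for narrow DHSs, and per kilobase of DHS it was 877 against 359. The lowest value of any wide DHS in any mouse rested on 26 reads. With these counts the standard error of a log2 fold change (FC) was small, with a median of 0.10 for PB in B6C3F1 and 0.08 in C57BL/6 over the wide DHSs, against 0.22 and 0.17 over the narrow ones.

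In the central 300 bp of each DHS, both strands searched, promoter-type sequences were more frequent in the wide set and liver-type factor sequences in the narrow set. The SP/KLF sequence GGGCGGGG occurred in 14.7% of wide and 6.06% of narrow DHSs, and in 6.24% of all autosomal DHSs. The ETS sequence CCGGAAGT occurred in 2.68% and 1.40% (all 1.43%), and the palindromic sequence of NRF1 in 0.91% and 0.28% (all 0.30%). The half-site AGGTCA occurred in 19.5% of wide and 28.4% of narrow DHSs (all 28.2%), the forkhead sequence TGTTTAC in 4.84% and 7.45% (all 7.40%), and the HNF4A-like CAAAGTCCA in 0.72% and 1.87% (all 1.84%). A CTCF-like sequence was found in 1 wide DHS and 700 narrow ones (0.73% of all). Much of this followed the genomic class: within promoters, GGGCGGGG occurred in 24.1% of wide and 29.5% of narrow DHSs, and outside promoters AGGTCA occurred in 26.2% and 30.5%. The AP-1 sequence TGANTCA (8.05% and 10.8%, all 10.7%), the YY1 sequence (0.48% and 0.19%, all 0.20%) and TTGCGCAA of C/EBP (0.05% and 0.21%, all 0.20%) completed the 10 searched. Some letters can overlap, as those of GGGCGGGG do in a run of G. The narrow set held 17462 DHSs of 106 to 199 bp and 27083 of 200 to 299 bp. These were shorter than the 300 bp window, which limits the comparison of the 2 sets.

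Of the 5 widest DHSs, 4 lay beside Mir122b, Ces3a, Serpina3k and Amn1. The DHS beside Mir122b, at the locus of the main liver microRNA, was 2914 bp wide, with counts from 3992 to 9334 over the 18 mice. That in Ces3a, which encodes a liver carboxylesterase, was 2678 bp wide, with counts from 1918 to 4050. Neither passed the test for PB or strain.

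The DHSs of Serpina3k and Amn1 differed greatly between mice of the same group. Serpina3k, a gene for a secreted protease inhibitor, ends at chr12:104345739. The DHS of 2443 bp (chr12:104345656-104348098) overlapped this 3′ end, and most of it lay beyond the gene. There vehicle-treated C57BL/6 mice 1, 2, 3 and 5 had 276, 342, 335 and 1956. PB-treated C57BL/6 mice 1 to 5 had 1822, 240, 1699, 338 and 395. Vehicle-treated B6C3F1 mice 1, 2, 3 and 5 had 5524, 4485, 1332 and 585. PB-treated B6C3F1 mice had 361, 254, 603, 681 and 4275, so that every group held mice several fold apart and the groups overlapped. Serpina3k RNA lay between 6786 and 11073 CPM in all 18 mice. It was 11060 CPM in C57BL/6 vehicle mouse 1 and 10751 CPM in B6C3F1 vehicle mouse 1, where the DHS counts were 276 and 5524. The DHS of 2387 bp in Amn1 spanned 362 to 3974, and across the 18 mice its log2 counts went with those of the Serpina3k DHS (Pearson r = 0.78, n = 18, a description over mice of 4 groups). Neither was called for PB or strain. The within-group standard deviation of log2 counts had a median of 0.14 over wide DHSs and 0.29 over narrow ones, but exceeded 1 in 6 wide DHSs. The most variable was the intergenic chr12:104087085-104088376 near Serpina4-ps1, also in a serpin gene cluster, with 90.6 to 1874 in vehicle-treated and 56.6 to 1549 in PB-treated B6C3F1 mice.

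The 2 highest counts belonged to stretches that match the mitochondrial genome. The DHS at chr2:22588513-22589822, in an intron of Myo3a, had a mean of 35315 and matched mitochondrial DNA at 97.9% identity over 1309 bp. The DHS at chr4:80003294-80004382 had a mean of 16136 and matched at 94.1% over 1087 bp. Both were highest in C57BL/6 vehicle mouse 5, at 66387 and 30493, against 27331 to 32209 and 12527 to 14836 in the other 3 mice of its group. The share of mitochondrial reads at these sites was not tested. The third highest, chr2:98666247-98667329, with 81.4% repeat-masked sequence, had 2854 to 6177 in C57BL/6 and 9608 to 25548 in B6C3F1 mice, without overlap. Its strain log2 FC of 1.85 missed the FDR limit (FDR = 0.013, limma).

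Wide DHSs held a larger share of the DNase-seq signal in B6C3F1 than in C57BL/6 mice. The share of all normalized counts was 9.78% ± 0.16 (SD, n = 4) in vehicle-treated and 9.76% ± 0.26 (n = 5) in PB-treated C57BL/6 mice, and 10.5% ± 0.26 (n = 4) and 10.5% ± 0.20 (n = 5) in B6C3F1 mice. Every B6C3F1 mouse (10.2% to 10.8%) lay above every C57BL/6 mouse (9.50% to 10.1%), whereas PB and vehicle overlapped in each strain. The promoter members alone held 5.16% to 5.43% in vehicle-treated C57BL/6 and 5.61% to 6.15% in vehicle-treated B6C3F1 mice, without overlap. In PB-treated mice the promoter members held 5.10% to 5.58% in C57BL/6 and 5.52% to 6.04% in B6C3F1, with overlap. The remaining members overlapped between the strains under both treatments, at 4.26% to 4.71% and 4.55% to 4.69% without PB and 4.33% to 4.65% and 4.59% to 4.75% with PB. Without the 2 mitochondrial-like sites the shares were 9.38% to 9.88% in C57BL/6 and 10.0% to 10.6% in B6C3F1 mice.

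**Figure D1:**
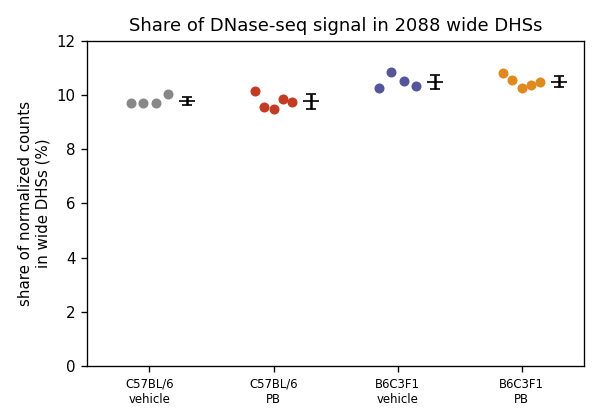
Share of normalized DNase-seq counts that fell in the 2088 wide DHSs, in percent, for each mouse (points) of the 4 groups, with the group mean and SD (black bars). The 9 B6C3F1 mice lie between 10.2% and 10.8%, above the 9 C57BL/6 mice, and the PB and vehicle groups of a strain overlap.

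Sequencing depth differed between the strains and moved with the share within C57BL/6. B6C3F1 libraries had 7.01 to 25.7 M reads (M, 10 to the power 6) in DHSs and C57BL/6 libraries 19.4 to 58.1 M. Within C57BL/6, the 4 mice below 30 M reads had shares of 9.74% to 10.1% and the 5 deeper ones 9.50% to 9.71%. Without the mitochondrial-like sites the same mice spanned 9.47% to 9.88% and 9.38% to 9.54%, which overlapped. Within B6C3F1, the shares of the 9 mice in order of depth, from 7.01 to 25.7 M reads, were 10.5%, 10.5%, 10.8%, 10.3%, 10.8%, 10.3%, 10.6%, 10.2% and 10.4%. The lowest of these was that of vehicle mouse 1, at 24.4 M reads. The part of depth in the strain gap was not tested beyond these values.

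PB changed very few wide DHSs. A DHS was called at |log2 FC| of at least 0.58 and a false discovery rate (FDR) of at most 0.01 by limma over all 98170 DHSs. In B6C3F1, 2 of 2088 wide DHSs were called, both higher with PB, where 0.19% of all DHSs were called and 0.169% were called higher. In C57BL/6 none was called by limma or by the edgeR quasi-likelihood test, where 0.367% of all were called by limma, and 95 wide DHSs had an unadjusted p below 0.05 (7.76% of all DHSs did). In B6C3F1, 197 wide DHSs had such a p, or 9.43% against a background of 9.16%. The median log2 FC was −0.01 in both strains, with 5th to 95th percentiles of −0.29 to 0.22 in B6C3F1 and −0.15 to 0.16 in C57BL/6, against −0.53 to 0.52 and −0.35 to 0.39 for narrow DHSs.

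The small number of calls did not come with wide error. The 95% interval of the log2 FC lay wholly within ±0.58 for 1884 wide DHSs (90.2%) in B6C3F1 and 1978 (94.7%) in C57BL/6, against 42.8% and 64.7% of all DHSs. PB and vehicle mice did not overlap in 29 wide DHSs that were higher and 17 that were lower with PB in B6C3F1 (1.89% and 1.65% of all DHSs), and in 13 and 19 in C57BL/6 (1.74% and 1.4%). At matched levels calls were few in both sets. With mean counts of at least 200 and below 500, 0 of 276 wide and 53 of 17946 narrow DHSs (0.295%, above the share of all DHSs) were called in B6C3F1, and 0 and 48 in C57BL/6. With mean counts of at least 500 and below 1000, 2 of 708 wide and 11 of 8659 narrow DHSs were called in B6C3F1, and 0 and 5 in C57BL/6. With mean counts of at least 1000 and below 2000, 0 of 804 wide and 1 of 3311 narrow DHSs were called in each strain.

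**Figure D2:**
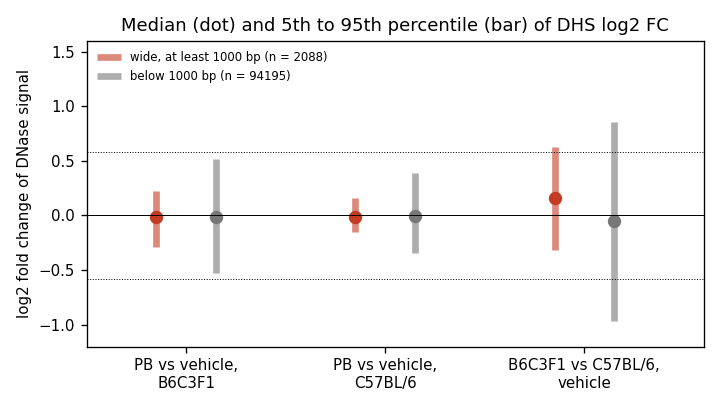
Median (dots) and range from the 5th to the 95th percentile (bars) of the DHS log2 FC for PB against vehicle in each strain and for B6C3F1 against C57BL/6 in vehicle-treated mice, with dotted lines at ±0.58. Wide DHSs spread less than narrow ones in all 3 comparisons, and only their strain median, 0.16, lies clearly above 0.

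One of the 2 called sites lay in intergenic sequence upstream of Adamtsl1, a gene for a secreted matrix glycoprotein. Vehicle-treated B6C3F1 mice 1, 2, 3 and 5 had 344, 513, 428 and 458 normalized counts, and PB-treated mice 1 to 5 had 753, 781, 687, 743 and 600. The groups did not overlap, and the log2 FC was 0.72 ± 0.12 (SE, n = 4 and 5, limma FDR = 0.0074). In C57BL/6 the values were 464, 536, 386 and 444 without PB and 517, 640, 632, 540 and 660 with PB, with vehicle mouse 2 above PB mouse 1 (log2 FC 0.39 ± 0.10, FDR = 0.11). The strain difference of the PB response was 0.33 ± 0.34 (95% interval). RNA of Adamtsl1, which was chosen for its place beside the DHS, rose from 1.99 ± 0.57 (SD) to 10.4 ± 1.08 CPM in B6C3F1 (log2 FC 2.37) and from 1.83 ± 0.20 to 6.65 ± 1.66 CPM in C57BL/6 (log2 FC 1.78). Both changes passed the test, and no PB-treated mouse overlapped a vehicle-treated one. The DHS call depended on single mice, since leaving out any B6C3F1 mouse but vehicle mouse 2 or PB mouse 5 ended it (FDR of up to 0.036), while the log2 FC stayed between 0.61 and 0.80. With the mouse number as a block it did not pass (FDR = 0.068).

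The promoter of Sult1c2, a cytosolic sulfotransferase gene, came close to a call in B6C3F1. Its DHS had 574, 665, 661 and 588 in vehicle-treated and 980, 927, 1028, 1044 and 694 in PB-treated B6C3F1 mice, without overlap (log2 FC 0.57 ± 0.11, FDR = 0.021). In C57BL/6 it had 630, 658, 633 and 531 against 646, 687, 683, 797 and 691, with overlap (log2 FC 0.19, FDR = 0.62). The edgeR quasi-likelihood test called it in B6C3F1 (log2 FC 0.61, FDR = 0.0080), as did limma without PB mouse 5 (log2 FC 0.68, FDR = 0.00092). Sult1c2 RNA rose in both strains, from 8.50 ± 1.98 to 21.9 ± 0.88 CPM in B6C3F1 and from 5.71 ± 1.17 to 10.0 ± 1.04 CPM in C57BL/6, with log2 FC of 1.38 and 0.82 that passed the test. The DHS lay on the gene's own TSS.

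In C57BL/6 the smallest FDR among wide DHSs was at chr2:32928259-32929557, over an exon of Lrsam1, which encodes a ubiquitin ligase. It had 515, 518, 487 and 468 in vehicle-treated mice and 686, 733, 751, 594 and 780 in PB-treated mice, without overlap (log2 FC 0.51 ± 0.09, FDR = 0.0038), and missed only the fold limit. It was the only wide DHS that passed the FDR limit in C57BL/6 with no minimum fold, as 0.38% of all DHSs did. It did not pass without C57BL/6 vehicle mouse 1, 2, 3 or 5 or PB mouse 2, 3 or 5 (FDR of up to 0.025), with each mouse centred on its median (FDR = 0.014) or with all 4 groups in 1 fit (FDR = 0.44). In B6C3F1 its log2 FC was 0.17 (FDR = 0.85). A DHS in an intron of Fez2, chosen by its small p, had a log2 FC of 0.49 in C57BL/6 (FDR = 0.039) and 0.39 in B6C3F1 (FDR = 0.50), while Fez2 RNA had 0.42 and 0.74.

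**Figure D3:**
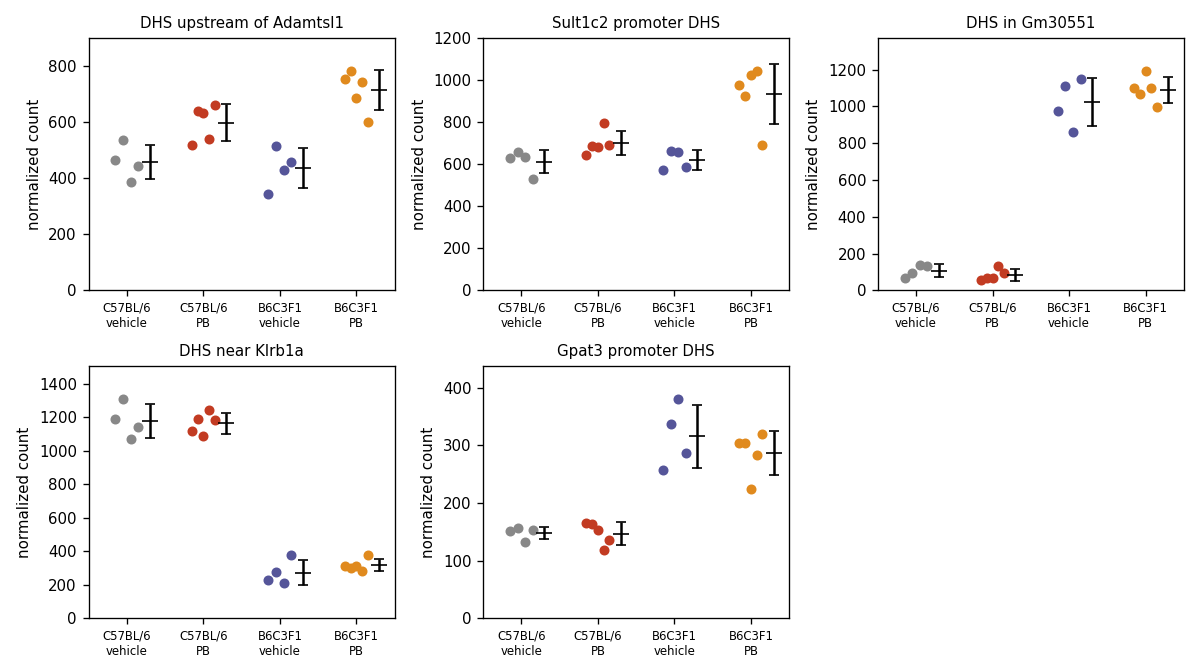
Normalized counts of 5 wide DHSs in each mouse (points), with the group mean and SD (black bars). At the Adamtsl1 and Sult1c2 DHSs PB-treated B6C3F1 mice lie above vehicle-treated ones, and at the other 3 the strains are apart in both treatments, with counts of 55.0 to 138 against 864 to 1193 at the Gm30551 DHS.

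No wide DHS passed the test for a different PB response between strains, and 0 of all 98170 DHSs did. The smallest FDR among wide DHSs was 0.905, and edgeR also called 0 of them. An unadjusted p below 0.05 was found for 78 wide DHSs (3.74%), against 5.39% of all DHSs. For 1754 wide DHSs (84.0%) the 95% interval of the difference lay within ±0.58, against 27.6% of all DHSs. Across the 2088 wide DHSs the PB log2 FC of the strains had a Pearson r of 0.14, and over narrow DHSs 0.27, as a description over sites that share libraries. The smallest unadjusted p belonged to gene-body DHSs of Txnl4a, Pcca and 9130024F11Rik, with differences of 0.44, −0.81 and −0.42.

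Few genes known to respond to PB had a wide DHS at their start, at a share near that of all genes. Of 50 CAR and PB response genes, 29 rose and 2 fell in RNA in B6C3F1, where 1.55% and 0.448% of all genes tested did, and 32 rose and 0 fell in C57BL/6 (0.845% and 0.0289%). A TSS of 43 of these genes lay in a DHS of any width, and of 3 (6.00%) in a wide DHS, against 8.49% of the 13862 genes of the RNA table. The 3 were Cyp3a13, a steroid and drug hydroxylase gene, Mdm2, the p53 ubiquitin ligase gene, and Nr1i2, which encodes the xenobiotic receptor PXR. Cyp3a25, Ugt1a1 and Ugt1a6a overlapped a wide DHS away from their start. None of the 3 promoter DHSs was called with PB, but neither was any of the 1102 wide promoter DHSs in either strain. The 3 had log2 FC of 0.03, −0.03 and −0.11 in B6C3F1 and 0.11, 0.03 and 0.12 in C57BL/6. Cyp3a13 RNA averaged 180 and 232 CPM in vehicle- and PB-treated C57BL/6 mice and 105 and 153 CPM in B6C3F1 mice, below the fold limit. Between the strains its RNA was called (log2 FC −0.77), and its promoter DHS had −0.37 (FDR = 0.0017), also below the fold limit. Cyp2b10, whose promoter was no wide DHS, rose from 11.7 to 1519 CPM in B6C3F1 and from 8.73 to 1194 CPM in C57BL/6.

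Some regulators of liver identity, lipid metabolism and daily rhythm had wide promoter DHSs. None of these was called with PB, but neither was any of the 1102 wide promoter DHSs in either strain. The counts per list are small, and whether the lists differ from other genes was not tested. Of 34 hepatocyte transcription factor genes, 6 had a TSS in a wide DHS: Foxa2, Nr1h4 (the bile acid receptor FXR), Nr1i2, Nr2f6, Ppara and Nfib. Of 18 clock genes these were Tef, Nfil3 and Bhlhe40, all transcription factors. Of 30 lipid and bile acid genes they were Cyp27a1 and Slc10a1 of bile acid synthesis and uptake, and Insig1, Fasn and Acly of lipid synthesis. Of 28 immediate early and stress genes they were Egr1, Hspa1b and Dusp1, and single genes were Rbp4 among 40 plasma protein genes and Axin2 among 21 Wnt targets. Between the strains none of them was called either, where 7.62% of the wide promoter DHSs were. As examples, the Ppara promoter had log2 FC with PB of 0.06 in B6C3F1 and −0.12 in C57BL/6, the Foxa2 promoter 0.07 and −0.02, and the Axin2 promoter −0.19 and −0.13. In RNA, PB raised 1 of 18 clock genes, 1 of 27 stress genes and 3 of 20 Wnt targets tested in B6C3F1, against 1.55% of all genes. In C57BL/6 it raised 1 stress gene and 2 Wnt targets (0.845% of all genes), with 1 of 34 hepatocyte transcription factor genes lower. Between the strains, 3 stress genes and 1 gene each of the transcription factor, clock, plasma protein and lipid lists were higher in B6C3F1 (1.73% of all genes) and 4 Wnt targets were lower (1.91%). No TSS of the listed marker genes of hepatocytes, endothelial, Kupffer, stellate, bile duct or lymphoid cells lay in a wide DHS, although Apoa1 and Ttr overlapped one.

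The strains differed more than the treatments did. In vehicle-treated mice, 135 wide DHSs (6.47%) were called between B6C3F1 and C57BL/6, against a background of 10.5% of all DHSs. At matched mean counts per DHS, however, wide DHSs were called more often than narrow ones. From 200 to below 500 it was 18.8% of wide and 12.1% of narrow DHSs, and from there to below 1000 8.47% and 4.34%. To below 2000 it was 2.74% and 1.12%, and to below 5000 0.36% and 0%. Of the 135 calls, 111 were higher in B6C3F1 (6.14% of all DHSs were) and 24 were lower (4.34%). The share of higher calls was thus 82.2% among wide and 58.4% among narrow DHSs, and it was 72.0% (72 of 100 calls) when each mouse was centred on its median. Calls in wide DHSs were also smaller, with a median |log2 FC| of 0.68 against 0.94, and 13 reached 2-fold. Beyond the calls, 1517 wide DHSs (72.7%) had a higher mean log2 count in B6C3F1, against 45.8% of narrow DHSs, and the median log2 FC was 0.16 against −0.05. An unadjusted p below 0.05 was found for 1090 wide DHSs (52.2%) and 39.6% of all DHSs. With no minimum fold, 408 wide DHSs passed the FDR limit as higher and 61 as lower (7.45% and 5.21% of all DHSs). The vehicle-treated strains did not overlap in 690 wide DHSs that were higher (33.0%, against 15.2% of all DHSs) and 97 that were lower (4.65% against 12.6%). For 1505 wide DHSs (72.1%, against 30.8% of all DHSs) the 95% interval of the strain difference lay within ±0.58.

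In PB-treated mice, which share no animal with the vehicle-treated ones, the strain difference had the same pattern. The median log2 difference was 0.15 over wide and −0.03 over narrow DHSs, and 1599 wide DHSs (76.6%) were higher in B6C3F1. The strains did not overlap in 443 wide DHSs that were higher (21.2%, against 6.97% of all DHSs) and 54 that were lower (2.59% against 8.49%). All 135 DHSs called in vehicle-treated mice had the same sign in PB-treated mice, and in 105 of them the PB-treated strains did not overlap, where this held for 15.5% of all DHSs. Their vehicle-treated strains did not overlap in 133 of 135, a count that the call itself favours.

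In every genomic class the median strain log2 FC was more positive in the widest DHSs than in those of 200 to 299 bp. From DHSs of 200 to 299 bp to those of 1500 bp or more, the median log2 FC went from 0.03 to 0.23 in promoters, from −0.01 to 0.22 over exons, from −0.12 to 0.08 in introns and from −0.10 to 0.14 in intergenic sequence. The widest class held 69 promoters but 15 exon and 16 intron DHSs. CpG-rich wide DHSs had a median of 0.23 (narrow CpG-rich 0.14) and the other wide DHSs 0.09 (narrow −0.08). Of the 111 higher calls 82 were promoters and 70 were CpG-rich, and of the 24 lower calls 2 were promoters and 2 were CpG-rich.

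**Figure D4:**
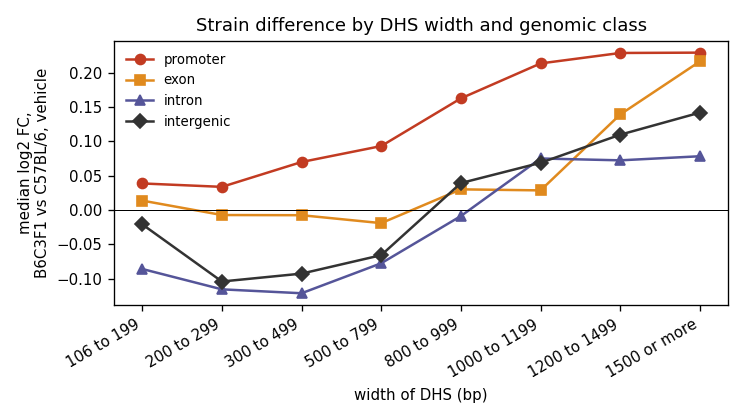
Median log2 FC of B6C3F1 against C57BL/6 in vehicle-treated mice (vertical axis) for 8 classes of DHS width in bp (horizontal axis), with a line for each genomic class. In all 4 classes the median of the widest DHSs lies above that of the 200 to 299 bp class, at 0.23 against 0.03 in promoters.

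The shift was largest in the weaker wide DHSs. From 200 to below 500 counts per kilobase it was 0.28 over 396 wide and 0.01 over 44763 narrow DHSs, from there to below 1000 it was 0.23 and 0.03, to below 2000 it was 0.11 and −0.02, and to below 5000 it was 0.00 and −0.07. Of the wide DHSs in these 4 ranges, 67 (16.9%), 54 (6.74%), 13 (1.82%) and 0 were called. Of the narrow DHSs 13.2%, 12.2%, 5.01% and 1.44% were, and of all DHSs 10.5%. The shift was also compared at like depth. Between vehicle-treated mice of nearly equal depth, B6C3F1 mouse 1 (24.4 M reads) and C57BL/6 mouse 5 (21.4 M), the median log2 difference was 0.07 over wide and −0.01 over narrow DHSs. Between PB-treated B6C3F1 mouse 4 (25.7 M) and the C57BL/6 mice 4 (25.1 M) and 1 (24.6 M), it was 0.15 and 0.06 over wide and −0.03 and −0.01 over narrow DHSs. Between C57BL/6 mice of the same group, the shallower mouse 5 exceeded mouse 3 (58.1 M) by 0.06 over wide DHSs, with −0.01 over narrow ones, and between B6C3F1 mice of the same group mouse 3 (7.01 M) exceeded mouse 1 by 0.07, with 0.00 over narrow ones. These pairs were picked for their depth after the shift had been seen, and the part of depth in it was not tested further.

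The wide DHSs with the largest strain differences lay away from promoters. The largest was at chr13:103591245-103592266, over an exon of the noncoding gene Gm30551, with 67.6, 92.5, 138 and 131 in vehicle-treated C57BL/6 mice and 974, 1113, 864 and 1149 in vehicle-treated B6C3F1 mice. PB-treated mice had 55.0 to 132 and 997 to 1193. The log2 FC was 3.29 ± 0.20 (limma FDR = 1.4e-07, n = 4 and 4). Next were an intergenic DHS near Gm16619 (log2 FC 1.92, 131 to 212 against 422 to 787), an intergenic DHS near Klf12, a Krüppel-like factor gene (1.78, 84.9 to 102 against 281 to 361), and a DHS over an exon of 1810014B01Rik (1.58, 170 to 348 against 587 to 869).

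A DHS of 1819 bp at chr2:34777216-34779034, over an exon of Rabepk and 6035 bp from the start of Hspa5, the gene of the endoplasmic reticulum chaperone BiP, completed the 5 highest. It had 437, 934, 479 and 542 in vehicle-treated C57BL/6 and 1491, 1843, 1428 and 2095 in vehicle-treated B6C3F1 mice (log2 FC 1.57 ± 0.26, FDR = 0.0051). A similar DHS of 1564 bp, chosen after its values were seen, lay downstream of Herpud1, whose product acts in degradation from the endoplasmic reticulum. It had 585 to 893 in C57BL/6 and 1247 to 2222 in B6C3F1 vehicle-treated mice (log2 FC 1.07, FDR = 0.0067). RNA of neither gene was called, with Hspa5 at 1330 ± 137 and 1872 ± 597 CPM and Herpud1 at 287 ± 47.9 and 582 ± 293 CPM in C57BL/6 and B6C3F1. Leaving out C57BL/6 mouse 1, 3 or 5 or B6C3F1 mouse 2 or 3 ended the call at the Rabepk site (FDR of up to 0.017), and leaving out mouse 2 or 3 of either strain ended it at the Herpud1 site (FDR of up to 0.022).

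The largest decrease in B6C3F1 was at chr6:128630935-128631935, 8501 bp upstream of Klrb1a, a killer cell receptor gene. Vehicle-treated C57BL/6 mice had 1190, 1310, 1068 and 1141 and vehicle-treated B6C3F1 mice 228, 277, 210 and 376 (log2 FC −2.14 ± 0.15). PB-treated mice had 1088 to 1245 and 281 to 377, so the strains were apart under both treatments. A DHS in an intron of Tmem104 had 1158 to 1365 against 488 to 642 (log2 FC −1.27). The promoter DHS of Adgrl1, an adhesion receptor gene, had 452 to 593 against 256 to 304 (−0.96), an intronic DHS of Ccdc33 2001 to 2506 against 1067 to 1266 (−0.95), and an intergenic DHS near Gm51630 1049 to 1462 against 503 to 937 (−0.93). The last call ended without C57BL/6 mouse 1, 2 or 5 or B6C3F1 mouse 2 or 5 (FDR of up to 0.021) and with the mouse number as a block (FDR = 0.049). A DHS 2299 bp wide at chr1:153909829-153912127 lay beyond the 3′ end of Glul, the glutamine synthetase gene of perivenous hepatocytes (chr1:153899929-153909723). It was chosen after its values were seen and was lower as well (log2 FC −0.64, FDR = 0.0020). It was not called without C57BL/6 mouse 5 or B6C3F1 mouse 2 (log2 FC −0.54 in both).

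Genes with a TSS in a wide DHS were well expressed and rarely changed. A TSS of 1177 genes of the RNA table lay in a wide DHS, and their median RNA was 33.3 CPM, against 17.3 CPM for 10071 genes with a TSS in another DHS and 1.52 CPM for 2614 with none. With PB, 9 of the 1177 were called in B6C3F1 (0.765%, 7 higher and 2 lower) and 3, all higher, in C57BL/6 (0.255%), where 2% and 0.874% of the 13838 genes tested were called. Of all genes tested, 1.55% were higher and 0.448% lower in B6C3F1, and 0.845% higher and 0.0289% lower in C57BL/6. Between the strains without PB, 20 were called (1.70%, 11 higher and 9 lower in B6C3F1) against 3.63% of all genes (1.73% higher and 1.91% lower).

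None of the genes that responded to PB had a promoter DHS called by limma, but neither was any of the 1102 wide promoter DHSs. The edgeR test called the promoter DHS of Sult1c2 in B6C3F1 as given above. In B6C3F1 the DHS log2 FC of the 9 genes ran from −0.41 to 0.57, and 4 of them, those of Sult1c2, 6430573F11Rik, Ldlrad4 and Elovl1, lay outside the 5th to 95th percentiles of all wide DHSs. After Sult1c2, the largest RNA changes in B6C3F1 were those of 6430573F11Rik (log2 FC −0.98, from 5.65 to 2.95 CPM, named Trmt9b in RefSeq), Slc22a4, an organic cation transporter gene (log2 FC 0.90, from 3.23 to 6.05 CPM), Ldlrad4, an inhibitor of TGF-β signalling (0.83, from 8.34 to 14.9 CPM), and Elovl1, a fatty acid elongase gene (0.75, from 29.3 to 49.4 CPM). Their promoter DHSs had log2 FC of −0.41, 0.15, 0.32 and 0.26, and PB and vehicle mice did not overlap at the first. In C57BL/6 the 3 called genes were Myo9a, an unconventional myosin gene (from 28.1 ± 2.28 to 54.7 ± 3.93 CPM, log2 FC 0.96), Sult1c2 and the transporter-like Mfsd11 (0.59). In B6C3F1 Myo9a averaged 22.1 and 28.2 CPM without and with PB (log2 FC 0.35), and its promoter DHS had log2 FC of −0.03 in C57BL/6 and −0.06 in B6C3F1. In 8 of the 9 B6C3F1 genes and 2 of the 3 C57BL/6 genes the DHS and RNA changes had the same sign.

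Between the strains, the promoter accessibility and RNA of the same gene were both called for 3 genes. Of all 1181 pairs of a gene and its wide DHS, 92 had the DHS called and 20 the RNA. Whether 3 is more than unrelated calls would give was not tested. Gpat3, listed in the RNA table as Agpat9, encodes an acyltransferase of triglyceride synthesis. Its promoter DHS had 151, 156, 133 and 153 in vehicle-treated C57BL/6 and 257, 337, 380 and 287 in vehicle-treated B6C3F1 mice (log2 FC 1.07 ± 0.15), and its RNA 4.29 ± 0.79 and 15.9 ± 1.93 CPM (log2 FC 1.87). Apcs, the gene of serum amyloid P, had a DHS log2 FC of 0.66 and RNA of 51.5 ± 8.45 and 167 ± 6.39 CPM (1.71). The Apcs DHS was not called without C57BL/6 mouse 1, 2 or 3 or B6C3F1 mouse 1 or 2 (FDR of up to 0.020), or with each mouse centred on its median (FDR = 0.012). At C130046K22Rik the signs were opposite, with 0.65 in the DHS, which it shares with Gosr2, and −0.98 in RNA.

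The largest RNA differences had smaller DHS differences beside them. Ankrd55 had 0.18 and 3.08 CPM in C57BL/6 and B6C3F1 (log2 FC 3.60) with a DHS log2 FC of 0.62 (FDR = 0.035), and Hspa1b, a heat shock protein gene, 11.0 and 83.6 CPM (3.00) with 0.45. Syvn1, a ubiquitin ligase gene of the endoplasmic reticulum, had 43.7 and 116 CPM (1.35) with 0.41, and Ficd, whose product modifies BiP, 11.2 and 19.6 CPM (0.77) with 0.15. Lower in B6C3F1 were 4930412C18Rik (−1.42), Zfp39 (−0.81), Cyp3a13 (−0.77) and Hal, of histidine breakdown (−0.64). Of 92 pairs of a gene and its called promoter DHS, 57 had the same sign in RNA, and of the 20 called genes 18 did. Over all 1181 pairs the Pearson r between DHS and RNA log2 FC was 0.20 for the strains and 0.38 and 0.23 for PB in B6C3F1 and C57BL/6, as descriptions over genes, which are not independent replicates.

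**Figure D5:**
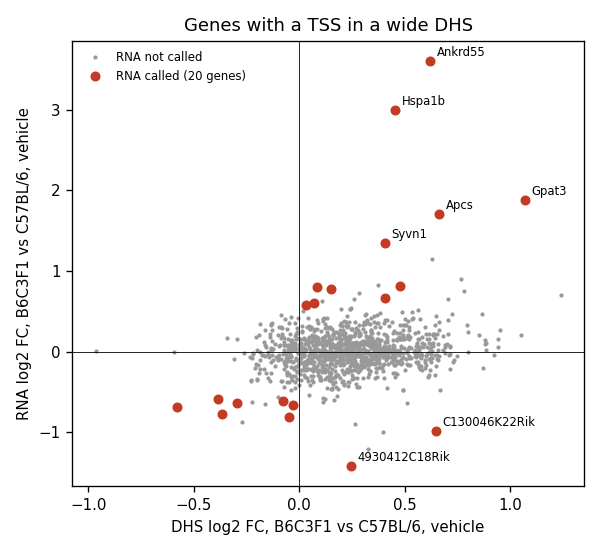
Log2 FC of B6C3F1 against C57BL/6 in vehicle-treated mice for 1181 pairs of a wide DHS (horizontal axis) and a gene with its TSS in it (RNA, vertical axis), with the 20 genes called in RNA in red. Most points lie right of 0 and around 0 in RNA, and Gpat3 and Apcs are high in both.

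Markers of other liver cells were compared between the strains as summed RNA. The 8 Kupffer cell and macrophage markers summed to 278 to 382 CPM in C57BL/6 and 211 to 273 CPM in B6C3F1 vehicle-treated mice, without overlap. With PB the sums overlapped, at 256 to 448 and 221 to 269 CPM, and 0 of the 8 was called between vehicle-treated strains. The 6 lymphocyte markers, of which 3 were tested, summed to 18 to 25.2 and 12.7 to 15.4 CPM without PB. Between the vehicle-treated strains 2 of the 3 were called lower in B6C3F1, as 1.91% of all genes were. With PB the 6 summed to 17.3 to 32.6 and 12.1 to 16.2 CPM, without overlap. In B6C3F1, 1 of the 3 was called higher with PB, as 1.55% of all genes were. Without PB, the 6 hepatocyte markers summed to 66525 to 83203 and 80141 to 86491 CPM and the 8 endothelial markers to 416 to 459 and 381 to 431 CPM. The 7 stellate markers summed to 432 to 527 and 398 to 526 CPM and the 6 cholangiocyte markers to 34.4 to 42.8 and 33.5 to 49.9 CPM. The part of these cells in the strain differences of wide DHSs was not tested.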

How the data were processed

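DNase-seq and RNA-seq were analysed in the same 18 livers. For the DNase-seq signal, the authors trimmed reads with Cutadapt 1.8, aligned them to mm10 with Bowtie2 2.1.0, flagged duplicates, kept uniquely placed proper pairs, ran MACS2 2.1.1.20160309 on each mouse and counted reads with DiffBind 1.16.3 in DHSs found in at least 3 samples. B6C3F1 reads were also aligned to mm10. Merging over mice sets the width of a DHS. The deposited signal is a normalized count, in which each read of a mouse carries the same weight. For RNA, the authors used STAR 2.4.0f1 and deposited a signal in CPM scaled with edgeR 3.12.1. Divided by that weight, 100% of values of both assays were whole within 0.01.

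Here, limma 3.58.1 (R 4.3.3) was fitted to log2(normalized count + 1) of all 98170 DHSs, with the mice of the 2 groups compared, or all 18 for the strain difference in PB response, and to log2(CPM + 0.1) of 13838 genes that reached 0.4 CPM in 3 or more mice of a group. FDR is by Benjamini-Hochberg. Tests were tried on simulated counts. DHSs were placed on 31647 RefSeq TSSs of GRCm38, which has the coordinates of mm10, and compared with the mitochondrial genome by blastn 2.17.0+. Reads in genes numbered 23.8 to 30.3 M per mouse. P-values measure the spread between single mice, and read counts without molecular identifiers carry counting error in addition.

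Named were the 5 widest and 5 strongest members, called members with PB whose groups did not overlap, 5 in each direction between strains, the 3 smallest p for a strain difference in PB response, up to 4 promoter members per gene list and the 5 genes with the largest PB change per strain. Of these, 1 of the widest and 1 of the PB-called members are not reported here. Others were chosen after their values were seen: the Herpud1 and Glul sites, the members with the smallest p for PB, the most variable members and RNA of neighbouring genes. The members, lists and rules were chosen with earlier results of these data known. The alternatives were other pseudocounts, filters, scalings, groups in the fit, limits, widths, tests and each mouse left out.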

Additional observations from a re-analysis of the deposited data

Results flagged for a closer look

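Of 160 sets of 4 or 5 mice examined, 12 held a mouse far from the others of its group, and chance marks about 1 set in 20.

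At the Serpina3k DHS, C57BL/6 vehicle mouse 5 had 1956 and B6C3F1 PB mouse 5 had 4275 normalized counts, each the highest of its group. At the Amn1 DHS, C57BL/6 PB mouse 1 had 2228. C57BL/6 vehicle mouse 5 was also highest at both mitochondrial-like sites, the chr2 site near Gad2 with 66387 and the chr4 site near Tyrp1 with 30493, and in the share of signal in wide DHSs, with 10.0%.

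B6C3F1 vehicle mouse 3, the library with the fewest reads, had 25548 at the repeat-rich chr2 DHS near Lrrc4c and 642 at the Tmem104 DHS near Nat9. B6C3F1 PB mouse 5 had 1094 at the DHS near Gm51630 and 1043 at the DHS near Gm16619. In RNA, Herpud1 was highest in B6C3F1 vehicle mouse 5 (1017 CPM), and Serpina3k was lowest in B6C3F1 vehicle mouse 3 (7083 CPM).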

How the results depend on the processing

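The count of wide DHSs called with PB in B6C3F1 was 2 and moved to 0 with the mouse number as a block, 8 at a width of at least 800 bp, 0 at 1500 bp and 4 with edgeR and all 4 groups in 1 fit (an alternative chosen after seeing the data). Leaving out 1 mouse gave 0 to 6, with 6 without PB mouse 5 and 4 without vehicle mouse 3. In C57BL/6 it was 0, and 1 with no minimum fold, 3 at 800 bp and 0 to 1 without 1 mouse. Between strains it was 135, and 469 with no minimum fold, 378 at 800 bp, 7 at 1500 bp and 97 to 167 without 1 mouse. The strain difference in PB response gave 0 under every alternative run. RNA counts were 7 to 11, 2 to 4 and 14 to 22 without 1 mouse, for PB in B6C3F1, PB in C57BL/6 and strain. The median share of signal over mice was 22.2% at 800 bp, 1.06% at 1500 bp, 9.36% without the 100 strongest DHSs and 9.96% without the mitochondrial-like sites (chosen after seeing the data). Wider or narrower limits change which DHSs are counted, and the cause of the other moves was not tested. Of 1453 alternative values for named sites and genes, 1365 kept their direction and side of the limits, 83 lost and 5 gained a call, and 0 changed sign. Of 46 calls, 25 held in every setting.

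Mouse numbers were checked for pairing. Deviations of same-numbered vehicle and PB mice correlated between −0.20 and 0.24 in DNase-seq and −0.12 and 0.06 in RNA. In groups of 4 or 5 such values cannot show whether same-numbered mice were handled together. The main fits did not use the number as a pair. With the replicate block, the strain gave 132 calls and RNA 7, 3 and 20.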
